A study of Mus musculus with 18 samples.

Results

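The let-7 site isoforms are nuclear-encoded mRNA isoforms of mouse myotubes whose 3′ UTR holds a perfect match to bases 2 to 8 of let-7a-5p and no such match for miR-1, miR-206 or miR-133, the microRNAs that muscle makes in large amounts. The rule that selects them reads the deposited 3′ UTR sequences and uses no TE or half-life, though it was set with earlier results of these data known. They numbered 261 of the 7123 isoforms of the polysome table and 226 of the 6636 isoforms of the decay table, 487 of 13759 entries in all. With 89 isoforms listed with the same ends in both tables, this left 398 distinct isoforms of 164 loci. They carried 2.53% of the polysome coverage and 2.28% of the decay coverage. A further 49 polysome and 20 decay isoforms held both a let-7 site and a miR-1 or miR-133 site and were kept apart.

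The study used TIF-seq2, which sequences both ends of single mRNA molecules, on WT primary myoblasts of the gastrocnemius muscle of female mice, fused into myotubes within 24 h by 1 µM of the ERK inhibitor SCH772984. For polysome profiling, ribosomes were held on the mRNA with 100 µg/ml cycloheximide for 5 min, and gradients were split into free mRNA, light polysomes of 2 to 5 ribosomes and heavy polysomes of 6 ribosomes or more, from 2 mice each, which makes 6 libraries. For decay, 7.5 µg/ml actinomycin D blocked transcription before sampling at 0, 3, 6 and 12 h, from 3 mice each, which makes 12 libraries. All cells were WT and had received the ERK inhibitor, so the comparisons below are between isoforms within a table and not between conditions. Each deposited table pools the libraries of its assay into 1 coverage count and 1 derived value per isoform, TE (translation efficiency) or half-life, and 0 columns hold a value of a single library. Differences can therefore be set against the spread between loci, but not against the spread between mice.

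The myotube label was checked with fixed markers. Of 20 myotube markers, 12 were found by name in each table, together 8.28% of polysome coverage and 8.04% in the decay table. None of 5 fibroblast, 3 endothelial, 3 immune and 2 adipocyte markers was found by name (0 in each table), although naming was incomplete. Genes were named by matching the start of the deposited 5′ UTR to RefSeq promoters, which gave a name to 241 of the 487 entries and 93 of the 164 loci. Members without a match are given by their GRCm39 position.

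MicroRNAs guide Argonaute proteins to mRNAs, mainly by pairing of the seed near the 5′ end of the microRNA with the 3′ UTR. Bound mRNAs are usually translated less and lose their poly(A) tail sooner, so both readouts of these tables are ones a microRNA can move. The let-7 family builds up as animal cells leave the proliferating state, and its known targets include chromatin proteins of the Hmga group, growth factor signalling proteins and the cell cycle ubiquitin enzyme Cdc34.

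In the RefSeq set of mature mouse microRNAs (GRCm38.p6), 11 share the seed searched for, among them let-7a, b, c, d, e, f, g, i and k, miR-98-5p and miR-1961, so a site cannot be assigned to 1 of them. The sequences of 3 family members are shown because they differ outside the seed, and let-7j because its seed differs at the last base. Capitals mark bases 2 to 8.
let-7a-5p: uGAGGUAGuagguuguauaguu
let-7g-5p: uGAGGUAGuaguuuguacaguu
miR-98-5p: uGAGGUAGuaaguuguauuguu
let-7j: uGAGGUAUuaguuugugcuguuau
The seeds of miR-1 and miR-133 were read from miR-206-3p and miR-133b-3p, which have the same bases 2 to 8.
miR-206-3p: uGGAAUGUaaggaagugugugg
miR-133b-3p: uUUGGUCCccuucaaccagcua

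The following windows of the deposited 3′ UTRs show the sites of the members on which the results turn, known targets first, then the most covered members and isoforms with a partner that lacks the site. Capitals mark the match to bases 2 to 8, and the base after it stands opposite base 1 of the microRNA.
Cdc34, 68 nt after the stop codon, chr10:79523961-79523967, plus strand: tgtgggcctcaggcgacagaCTACCTCacc
Hmga1, 801 nt after the stop codon: tcttctcctctgttcacaaaCTACCTCtgg
Nme6, 158 nt after the stop codon: ctgctgcagtccagttctatCTACCTCtcc
Gatm, 290 nt after the stop codon: ggccgctaatatttaaccatCTACCTCtgt
Txn2, 70 nt after the stop codon: aagaactttatgtggtccttCTACCTCttg
Myl9, 44 nt after the stop codon: ctagaccccatcccagtcacCTACCTCccc
Rbm38, 779 nt after the stop codon: ggcagtgggtccctccacacCTACCTCagg
Ubxn6, 119 nt after the stop codon, chr17:56375430-56375436, minus strand: gtagagttggagacaaggtcCTACCTCctc
Arhgef2, 1121 nt after the stop codon, chr3:88555291-88555297, plus strand: tttctgaaaaggggctgtcaCTACCTCact
Fam207a, 1427 nt after the stop codon, chr10:77322751-77322757, minus strand: ccaagcagacatcactgggaCTACCTCaga
Gpr107, 1175 nt after the stop codon, chr2:31105527-31105533, plus strand: gcttcctggggtgagttactCTACCTCcca
Tma7, 284 nt after the stop codon, chr9:108907169-108907175, minus strand: tctctagtgttcagcaattcCTACCTCagc
Of these 12 sites, those of Cdc34, Rbm38, Arhgef2, Fam207a and Tma7 have an A opposite base 1, which Argonaute is known to bind.

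Most members had 1 site. Of the polysome members, 253 had 1 site, 6 had 2 and 2 had 3, and of the decay members 221 had 1, 4 had 2 and 1 had 3. The 3-site 3′ UTR was that of Tmem198b, with matches 92, 205 and 688 nt after the stop codon in a 3′ UTR of 1058 nt. They are shown because no other 3′ UTR held as many.
Tmem198b, 92 nt after the stop codon: taggacccatacagatttccCTACCTCtta
Tmem198b, 205 nt after the stop codon: ggaagacaaagtacaagcacCTACCTCtgt
Tmem198b, 688 nt after the stop codon: ccctacactcgtgaatcctgCTACCTCtgc
None of these has an A opposite base 1. Isoforms with 2 sites and a coverage of at least 30 included those of Alkbh4, a demethylase, with sites 194 and 327 nt after the stop codon, Lrrc20 with sites at 1046 and 2324 nt, and Chp1, a calcium-binding partner of sodium/proton exchangers, with sites at 878 and 1229 nt.

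Counting each site once per locus gave 172 distinct sites. An A stood opposite base 1 at 42 of them (24.4%, Wilson 95% interval 18.6 to 31.4%), while A made up 22.8% of all bases in the longest 3′ UTR of each locus, so this feature was about as common as the base itself. The median site lay 362 nt after the stop codon (95% interval of the median 290 to 419) and 344 nt before the 3′ end (279 to 426), in a 3′ UTR with a median of 874 nt. Cut into 4 equal parts from the stop codon on, the 3′ UTRs held 40, 45, 47 and 40 sites, an even spread. Only 3 sites lay within 15 nt of the stop codon, where ribosomes are known to keep Argonaute off. The A and U content of the 30 nt on either side had a median of 46.7%, and that of the whole 3′ UTR 47.6%. The difference per site had a median of -2.33 percentage points (-3.39 to -1.07), and 66 of the 172 sites had a neighbourhood richer in A and U than their 3′ UTR. Pairing to bases 13 to 16 of let-7a, searched on the plus strand of the mRNA as ACAA in the 15 nt before the site, was found at 4 sites (2.33%), against 3.75% of all 161400 windows of that length in these 3′ UTRs.

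**Figure D1:**
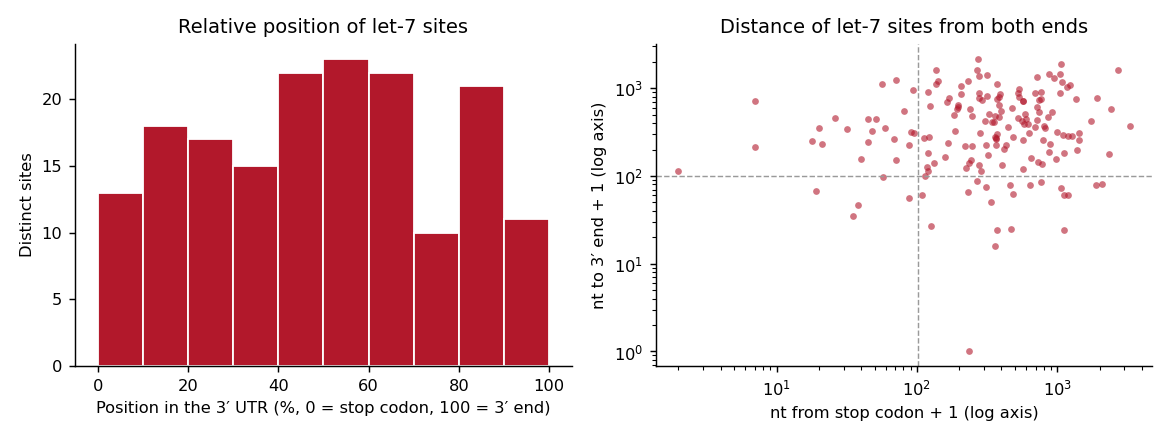
Positions of the 172 distinct let-7 sites. Left, number of sites (y) by position in the 3′ UTR in percent, from the stop codon at 0 to the 3′ end at 100; right, distance of each site from the stop codon (x) and from the 3′ end (y) in nt plus 1, both on log axes, with dashed lines at 100 nt. Sites run through the whole 3′ UTR, with 40, 45, 47 and 40 in its 4 equal parts.

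The let-7 seed match was somewhat denser than the muscle seed matches. Over the longest 3′ UTR of each of 3742 loci, let-7 had 0.0903 sites per kb, miR-1 had 0.0669 and miR-133 had 0.0715. Of these loci, 4.86% had a let-7 site, 3.66% a miR-1 site and 3.96% a miR-133 site. The part of base composition in these densities was not tested.

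Members differed from other isoforms most plainly in 3′ UTR length, since a longer 3′ UTR offers more places for a match. Values were compared where coverage reached 30, a 5′ and a 3′ UTR sequence were listed and the value was positive. This kept 137 members of 97 loci with TE and 163 members of 110 loci with half-life. Of those lost, 119 polysome and 57 decay members fell below the coverage minimum, 5 in each table had no 5′ UTR sequence and 1 decay member had no value. The median 3′ UTR was 680 nt in members and 291 nt in isoforms without a let-7 site in the polysome table, and 661 nt against 291 nt in the decay table. Before this filter, the annotated class made up 60.9% of polysome members, against 53.0% of isoforms without a site, and 59.3% against 53.9% in the decay table. Among the isoforms compared, it held 92 of 137 members and 2083 of 3353 isoforms without a site for TE. For half-life it held 107 of 163 and 2738 of 4645. Median coverage was 88 in members and 100 in isoforms without a site for TE, and 88 against 118 for half-life.

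TE had a median of 0.000590 in members (95% interval 0.000497 to 0.000646), against 0.000750 (0.000736 to 0.000770) in 3353 isoforms of 2081 loci without a let-7 site. Half-life had a median of 10.2 (9.70 to 10.7) in members, against 10.9 (10.7 to 10.98) in 4645 isoforms of 2811 loci without one. Neither value has a stated unit, and the labels give the decay times in hours. Both medians were lower in members, whose 3′ UTRs were also longer.

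At matched 3′ UTR length, members lay on both sides of isoforms without a site in both readouts, and the intervals of their medians included 0. Each member was divided by the median of isoforms without a let-7 site in the same bin of 3′ UTR length (bins of 0.5 doublings). For TE the median log2 ratio was 0.05 (-0.15 to 0.16), and 65 of 137 members lay below their bin's median, or 47.4%, where 49.8% of the isoforms without a site did. For half-life the median log2 ratio was 0.00 (-0.11 to 0.05), with 83 of 163 below, or 50.9%, against 49.9% of the isoforms without a site. With the most covered isoform of each locus, 48 of 97 members (49.5%) lay below for TE and 49 of 110 (44.5%) for half-life. Among isoforms without a site taken the same way, 977 of 2081 (46.9%) and 1420 of 2811 (50.5%) did. The spread among members was far wider than these medians, with SDs of 0.56 for log2 TE and 0.48 for log2 half-life.

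**Figure D2:**
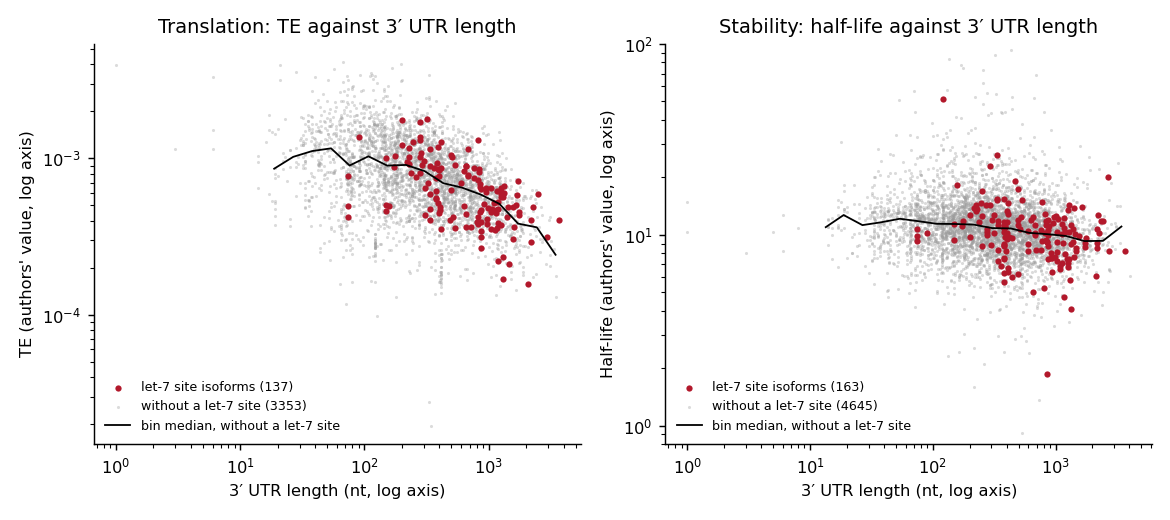
TE (left) and half-life (right) against 3′ UTR length, all axes logarithmic. Red points are let-7 site isoforms (137 and 163), grey points isoforms without a let-7 site (3353 and 4645), and the black line is the median of the grey points in each length bin with at least 9 of them; 8 grey points with half-lives above 100 are not drawn. Red points lie on both sides of the line, 65 of 137 below it for TE and 83 of 163 for half-life.

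The sign differed between bins, and short bins hold few members. Isoforms of a locus were counted separately, so the 19 members with 256 to 362 nt came from 10 loci. The 24 members with 725 to 1023 nt came from 16. For TE, the 4 members with 64 to 90 nt had a median of 0.000631, against 0.000900 in 223 isoforms without a site, with 3 of the 4 below. The 6 members with 128 to 181 nt had 0.000694, against 0.000899, with 4 below, whereas the 8 members with 182 to 255 nt had 0.00109, against 0.000908, with 1 below. The 19 members with 256 to 362 nt had a median of 0.000898, against 0.000829 in 418 isoforms without a site, with 8 of the 19 below. The 20 members with 363 to 511 nt had 0.000686, against 0.000694, with 10 below. The 14 members with 512 to 724 nt had 0.000737, against 0.000650, with 6 below. The 24 members with 725 to 1023 nt had 0.000498, against 0.000587, with 13 below. The 26 members with 1024 to 1448 nt had 0.000473, against 0.000512, with 15 below, and the 9 members with 1449 to 2047 nt had 0.000454, against 0.000383, with 3 below. The 5 members with 2048 to 2896 nt had 0.000404, against 0.000362, with 2 below.

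Half-life also ran both ways, and isoforms of a locus were again counted separately. All 4 members with 64 to 90 nt, from 2 loci, lay below, with a median of 10.05, against 11.8. The 5 members with 128 to 181 nt had 11.36, against 11.39, with 3 below. The 11 members with 182 to 255 nt had a median of 13.3, against 11.3 in 592 isoforms without a site, with 2 of the 11 below. Members were also higher by median at 256 to 362 nt (11.5 against 10.8, 8 of 18 below), at 512 to 724 nt (10.5 against 10.2, 6 of 13 below) and at 2048 to 2896 nt (10.5 against 9.30, 4 of 10 below). The 34 members with 363 to 511 nt, from only 21 loci, had a median of 10.3, against 10.8 in 614 isoforms, with 18 below. The 27 members with 725 to 1023 nt, from 19 loci, had 9.40, against 10.1, with 15 below. The 32 members with 1024 to 1448 nt, from 25 loci, had 9.13, against 9.86 in 246 isoforms, with 18 below. The 7 members with 1449 to 2047 nt had 9.07, against 9.27, with 4 below.

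A fit across all isoforms with terms for 3′ UTR length (linear and squared), 5′ UTR length and coverage gave a log2 coefficient for the let-7 site of -0.05 for TE (standard error 0.066, clustered by locus) and -0.06 for half-life (standard error 0.042). These correspond to 0.967 and 0.960 of the value without a site, and both 95% intervals, -0.18 to 0.08 and -0.14 to 0.02, include 0. Isoforms share loci and libraries, so no p is given. With isoforms bearing a muscle microRNA site in the same fit, let-7 minus muscle sites was -0.11 for TE (standard error 0.079) and 0.01 for half-life (standard error 0.051).

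Site features did not sort the members by readout beyond the intervals of their medians. The 40 isoforms with an A opposite base 1 had a median log2 TE ratio to their bin of 0.00 (-0.43 to 0.17), against 0.10 (-0.12 to 0.20) in 97 without it. For half-life the medians were -0.03 (-0.15 to 0.08) in 37 isoforms with the A and 0.01 (-0.11 to 0.07) in 126 without it. Isoforms whose first site lay in the last of the 4 equal parts of the 3′ UTR had -0.19 for TE (-0.53 to 0.14, 18 of 29 below) and -0.11 for half-life (-0.29 to 0.11, 17 of 29 below). Those with the first site in the first of the 4 parts had 0.13 for TE (-0.12 to 0.31, 16 of 41 below) and 0.00 for half-life (-0.21 to 0.08, 27 of 54 below). Of the 5 isoforms with 2 or more sites, 1 lay below its bin for TE, and of the 4 with a half-life, 1 did.

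**Figure D3:**
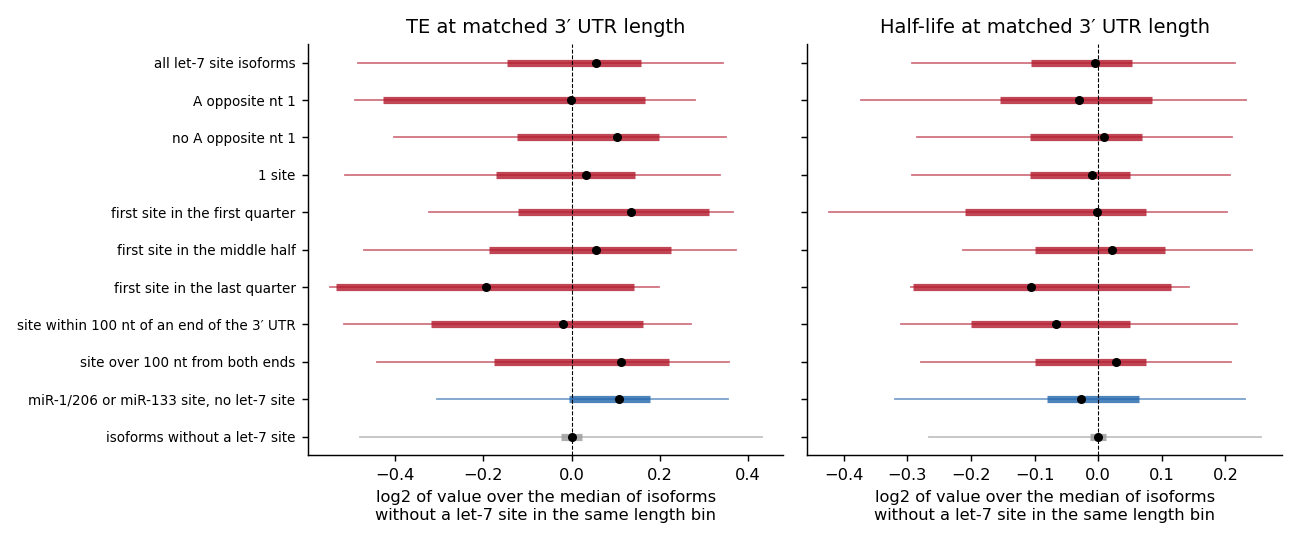
Median log2 ratio (black points) of TE (left) and half-life (right) to the median of isoforms without a let-7 site of like 3′ UTR length. Thick bars are 95% intervals of the median and thin lines the quartiles over isoforms; red rows are let-7 site isoforms by site feature, the blue row muscle microRNA sites, the grey row isoforms without a let-7 site. The thick bar of every red row crosses the dashed line at 0.

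Named members spanned this range. The most covered member of the polysome table, chr10:79540315-79547802 on the plus strand (coverage 6843), had a TE of 0.000861, 1.24 times its bin's median, and a half-life of 12.9 against a bin median of 10.8. Txn2, the mitochondrial thioredoxin, had a TE of 0.00102 (1.12 times) and a half-life of 13.6 (bin median 11.3). Myl9, a regulatory myosin light chain, had a TE of 0.00106 (1.52 times) and a half-life of 17.3 (1.60 times). Fis1, which takes part in mitochondrial fission, had a TE of 0.000944 (1.04 times) and a half-life of 13.8 (1.22 times). All 4 lay above their bin in both tables.

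Others lay below in one or both. Rbm38, an RNA-binding protein that acts in muscle differentiation, had a TE of 0.000513 (0.874 times its bin) and a half-life of 7.55 (0.749 times). Ldb3, a protein of the sarcomere's Z-disc, had a TE of 0.000425 (0.653 times) with a half-life of 10.7 (1.05 times). Bckdk, the kinase that switches off branched-chain amino acid breakdown, had a TE of 0.000359 (0.552 times) for the isoform ending at 127507792 and a half-life of 12.4 (1.21 times) for the one ending at 127507780. The locus at chr2:73396143-73410650 on the minus strand had the most covered decay member (coverage 9366), with a half-life of 11.3 (1.04 times) and a TE of 0.000618 (0.891 times). Usable members with the same ends in both tables numbered 63 isoforms of 51 loci, and 1 was taken per locus. Of these 51, 9 were below the bin median in both, 11 in TE only, 15 in half-life only and 16 in neither. The same joint count was not made for isoforms without a let-7 site, of which 49.8% lay below for TE and 49.9% for half-life.

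Isoforms that share a 3′ end share the site, yet differed. Over 20 such 3′ ends with 55 isoforms, the pooled SD of log2 TE was 0.46, against 0.69 between loci, and the highest isoform was a median of 1.48 times and at most 2.87 times the lowest. Over 24 such 3′ ends with 67 isoforms, the SD of log2 half-life was 0.31, against 0.52 between loci, with a median of 1.17 times and a maximum of 2.77 times.

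Of 54 known let-7 targets looked for, 7 were found by name in a table and 6 had a member: Cdc34, Hmga1, Nme6, Limd2, Gatm and Ddx19a. The 7th, Slc20a1, also held a muscle microRNA site. Those with a usable TE were 9 isoforms of 4 genes, 5 of which lay below their bin, with a median log2 ratio of -0.25 (-0.81 to 0.35). Those with a usable half-life were 10 isoforms of 5 genes, 4 of them below, with a median of 0.09 (-0.44 to 0.51). Of isoforms without a site, 49.8% lay below for TE and 49.9% for half-life. Several isoforms in each count were of Cdc34 and share the same 3′ UTR, so these intervals are over isoforms and not over genes.

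Hmga1, a chromatin protein that bends DNA, had a TE of 0.000387 for its main isoform (coverage 257), 0.756 times its bin, and 0.000528 for a second isoform that starts at 27775626, 1.03 times. Its half-life was 10.8, 1.10 times its bin. Nme6, a member of the nucleoside diphosphate kinase family, had a TE of 0.000696 (0.840 times) and half-lives of 15.5, 15.3 and 26.1 for 3 start sites, all above the bin's median of 10.8. Gatm, which makes the creatine precursor, had a half-life of 8.12 (0.824 times), and Ddx19a, an RNA helicase of mRNA export, one of 7.28 (0.738 times). Limd2, a LIM domain protein, had a TE of 0.000828 (1.27 times its bin) at a coverage of only 32, and its decay isoform fell below the coverage minimum.

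Partners that share the 5′ end but lack the site come closest to a within-gene comparison. Of 253 polysome 5′ ends with a member, 40 also gave rise to an isoform without the site, and of 207 decay 5′ ends, 25 did. These came from 26 and 22 loci, so some loci, such as Cdc34, count more than once below. At these 5′ ends the site isoforms held a median of 43.0% of the coverage in the polysome table (range 0.0448 to 89.7%) and 50% in the decay table (0.0801 to 78.8%). Cdc34 kept its site in 63.5% of the polysome coverage at the 5′ end 79518076 (Wilson 95% interval 57.8 to 68.9%) and in 50.3% of the decay coverage (46.9 to 53.8%). Trabd kept it in 29.4% of the polysome coverage (24.5 to 34.9%), and the site isoform of Ldb3 held 89.7% (86.2 to 92.4%). The isoform without the site was not always the shorter one. That of Txn2 had a 3′ UTR of 539 nt, against 228 nt with the site. These intervals cover counting error only, and decay coverage is summed over times, so it also reflects stability.

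Pairs were then formed of a longer isoform with the site and a shorter one without it, taking 1 pair per locus. Both had the same 5′ UTR and a coverage of at least 30, with 3′ ends at least 100 nt apart. The shorter 3′ UTR also had to be the start of the longer one. Partners that did not meet these rules were left out, among them that of Ldb3 in the polysome table (coverage 38). The 11 TE and 13 half-life loci below are thus only part of the 26 and 22 loci with a partner. The longer isoform with the site had the lower TE in 11 of 11 loci, with a median log2 difference of -0.66 (95% interval -1.20 to -0.25), or 0.631 times the partner. Among nested pairs of 132 other loci with no let-7 site in either isoform, the longer one was also lower in 114, or 86.4%, with a median of -0.41 (-0.48 to -0.33). The let-7 pairs added more 3′ UTR, a median of 992 nt against 442.5 nt. Set against site-free pairs of like added length (classes with edges at 200, 400 and 800 nt), only 4 of the 11 remained lower and the median was 0.09 (-0.61 to 0.43). The match is loose in the open class of 800 nt or more. There 7 let-7 pairs added a median of 1512 nt, against 1193 nt in 30 site-free pairs.

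For half-life the longer isoform with the site was lower in 11 of 13 loci, with a median log2 difference of -0.44 (-0.94 to -0.09), or 0.739 times the partner. Among 269 site-free pairs it was lower in 170, or 63.2%, with a median of -0.16 (-0.22 to -0.11). Added lengths were a median of 1113 nt in let-7 pairs and 391 nt in site-free pairs. Against site-free pairs of like added length, 10 of 13 were lower, with a median of -0.19 whose interval, -0.60 to 0.26, includes 0. By class, the single let-7 pair that added under 200 nt (Tma7) stood at -0.49, against a median of -0.17 over 73 site-free pairs. The 2 that added 200 to 400 nt stood at -0.19 (Ubxn6) and -1.25 (Cdc34), against a median of -0.05 over 64. The 2 that added 400 to 800 nt had a median of -0.48, against -0.14 over 71. All 5 of these lay below the median of their class. The Cdc34 pair was known before the members were chosen and is no independent support. Without Cdc34, 9 of 12 pairs were lower than site-free pairs of like added length, with a median of -0.16. In the class that added 800 nt or more, let-7 pairs had a median of -0.41 over 8 loci and site-free pairs -0.34 over 61, and 5 of the 8 lay below. This class is open, and its median added length was 1307.5 nt in let-7 pairs and 1184 nt in site-free pairs.

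The added stretches also carried other features. An AUUUA pentamer, an element known to speed decay, lay in the added stretch of 8 of 11 TE pairs and 10 of 13 half-life pairs with the site, against 38 of 132 (28.8%) and 116 of 269 (43.1%) of the site-free pairs. A Pumilio motif (UGUANAUA, mRNA strand only) was added in 1 pair of each kind with the site, and in 9 and 17 of the site-free pairs. The GC content of the added stretch had a median of 53.4% in TE pairs with the site and 51.3% in those without, and 53.5% against 45.7% in half-life pairs. Their part in the result was not tested. No source used here says whether the authors divided TE by transcript length, which would itself lower the longer isoform.

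**Figure D4:**
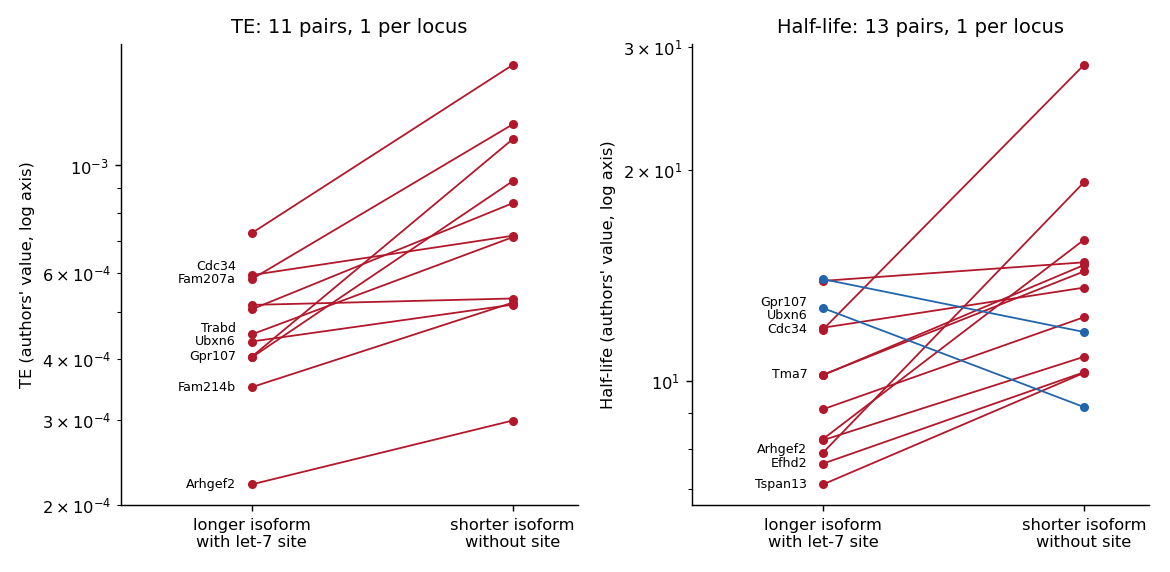
TE (left, 11 loci) and half-life (right, 13 loci) on log axes of the longer isoform with the let-7 site (left points) and the shorter isoform of the same 5′ end without it (right points), joined by a line per locus; named loci carry their gene symbol. Red lines mark pairs in which the isoform with the site is lower (11 of 11 and 11 of 13), blue lines those in which it is higher.

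Cdc34, the ubiquitin-conjugating enzyme that works with the SCF ligases in the cell cycle, had such pairs at more 5′ ends than any other member. Its 3′ UTR is 337 nt with the site and 36 nt without it, and the 301 nt between the ends hold neither an AUUUA pentamer nor a Pumilio motif. At the 5′ end 79518076 its half-life was 11.8 with the site (coverage 402) and 28.2 without it (coverage 397), 0.419 times. At 79517958 the half-lives were 11.2 with the site and 21.5 without it, 0.522 times, at coverages of 40 and 34. At 79517627 they were 8.36 with the site and 9.96 without it, 0.839 times, at coverages of 58 and 50. The isoform with the site was thus lower than its partner from all 3 start sites. Against its own length bin, its log2 half-life ratio was 0.13, 0.05 and -0.38 in that order. The 36-nt partners lay in the bin of 32 to 45 nt, where isoforms without a site had a median half-life of 11.6. Log2 TE ratios of the site isoforms to their bin were -0.81, -1.05 and -0.48. At 79521156 the ratios were -0.57 for half-life and 0.47 for TE.

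TE of Cdc34 was lower with the site from all 4 start sites that could be compared, at 0.830, 0.871, 0.746 and 0.756 times the partner. At 79517627 TE was 0.000595 with the site and 0.000717 without it, and at 79518076 it was 0.000471 with the site and 0.000541 without it. These log2 differences, -0.20 to -0.42, lay near the median of -0.34 (-0.49 to -0.18) of 26 site-free pairs that added 200 to 400 nt. The half-life differences at 79518076, 79517958 and 79517627 were -1.25, -0.94 and -0.25, against a median of -0.05 (-0.18 to 0.13) in 64 site-free pairs of that class, whose lowest stood at -2.26. The first of these, the largest, was known before the members were chosen and is no independent support. These pairs share their 3′ ends and libraries, so they are not independent.

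Arhgef2, an activator of the small GTPase RhoA, had a half-life of 7.89 with the site and 19.2 without it at the 5′ end 88523534 (0.411 times, coverages 94 and 65). At the 5′ end 88523450 its TE was 0.000221 with the site and 0.000299 without it (0.739 times, coverages 38 and 69). Its site lies 60 nt from the 3′ end with an A opposite base 1, and its added 1117 nt also hold an AUUUA pentamer. Tma7, a small protein that associates with the translation machinery, added only 146 nt, with half-lives of 10.2 with the site and 14.3 without it (0.712 times). Ubxn6, a cofactor of the p97 ATPase, had the deepest pairs. At the 5′ end 56382009 its half-life was 11.9 with the site and 13.6 without it (0.876 times, coverages 1503 and 1294). At the 5′ end 56381976 its TE was 0.000434 with the site and 0.000517 without it (0.840 times, coverages 771 and 924).

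Half-life ran the other way in 2 loci. Gpr107, a membrane protein of the secretory pathway, had a half-life of 12.7 with the site and 9.17 without it at the 5′ end 31042356 (1.38 times, coverages 49 and 94). At the 5′ end 31042345 its TE was 0.000404 with the site and 0.00113 without it, the largest TE difference of the 11 (0.357 times). The other, chr10:79795989-79805080 on the plus strand, had half-lives of 13.96 with the site and 11.7 without it (1.19 times). Of the remaining TE pairs, Fam207a stood at 0.481 times, Trabd at 0.631 times and Fam214b at 0.670 times the partner. Half-life pairs of Tspan13, a tetraspanin, and Efhd2, a calcium-binding actin regulator, stood at 0.693 and 0.740 times. A second, shorter site isoform of Efhd2 had a half-life of 14.3, 1.39 times the same partner, so the sign there depended on which 3′ end was taken. Among 17 loci with a pair in either table, 7 had one in both, and 5 of these were lower with the site in both readouts. The pair of a locus could have another 5′ end in each table. Of 103 site-free loci with a pair in both tables, the longer isoform was lower in both in 56 (54.4%), so a fall in both was common without a let-7 site.

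**Figure D5:**
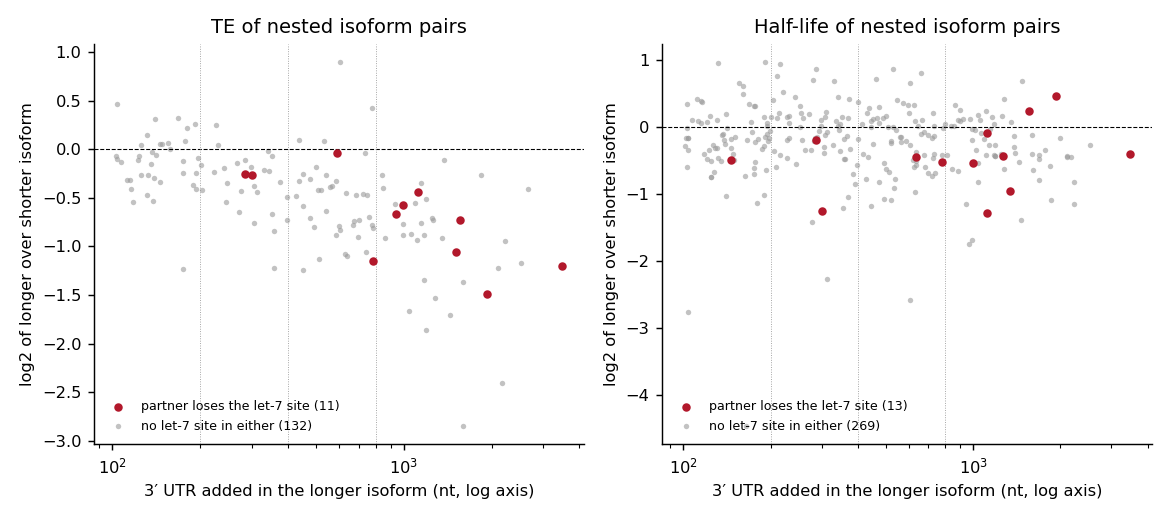
Log2 of the longer over the shorter isoform for TE (left) and half-life (right) against the 3′ UTR length added (nt, log axis), 1 pair per locus; dotted lines mark the edges of the length classes at 200, 400 and 800 nt. Red points are pairs whose shorter partner loses the let-7 site (11 and 13), grey points pairs with no let-7 site in either isoform (132 and 269). Red points lie mostly below 0, within the spread of the grey points at like added length. The exception is the locus that added 3483 nt, more than any grey point, so it has no grey point of like length.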

How the data were processed

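Per the submitters' processing notes, the mouse build was GRCm39 and the tools included STAR 2.5.3a and UMI-tools 0.5.4. The authors deposited 1 table per assay, with a whole-number coverage count per isoform pooled over 6 polysome or 12 decay libraries, and a derived score per isoform, TE or half-life, whose formula and unit no source used here states. Depth per library is therefore unknown. Coverage summed to 1601919 in the polysome and 3121491 in the decay table.

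Sites were exact matches to the reverse complement of bases 2 to 8. The seeds of miR-1a-3p and miR-133a-3p were taken from miR-206-3p and miR-133b-3p. Isoforms were joined into loci by a shared end or 20 shared nt of UTR beside the coding region. Genes were named where the first 20 nt of a 5′ UTR (or a whole one of 15 to 19 nt) occurred in a RefSeq promoter (250 nt before to 50 nt after the start, GRCm38.p6) of that chromosome and strand, with 1 symbol per locus.

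Comparisons used a coverage minimum of 30. Medians carry exact binomial order-statistic 95% intervals over isoforms or loci, which are not replicates. Fits were ordinary least squares (statsmodels 0.14.6, pandas 2.3.3, scipy 1.17.1, Python 3.11.15), tested on simulated data. Coverage minimums of 15 and 60, the annotated class, 1 isoform per locus, GC content, other reference sets, other bins and other pair rules were tried. Isoforms named are the 10 most covered members, the 5 with most sites and the 8 deepest pairs of each table, and the known targets. The TE pair of Arhgef2, the half-life pairs of Gpr107 and Efhd2 and the isoform at chr9:21667399-21671578 were named after their values were seen. The members and lists were chosen with earlier results of these data known, and the Cdc34 half-life pair at 79518076 was among those results.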

Additional observations from a re-analysis of the deposited data

Results flagged for a closer look

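Isoforms with both a let-7 site and a miR-1 or miR-133 site were described by no comparison above. They held a coverage of 7804 in the polysome table (49 isoforms) and 6150 in the decay table (20 isoforms). The usable ones were among the 3510 TE and 4822 half-life isoforms of the fit with let-7 and muscle sites together, but in neither site group. At matched 3′ UTR length, 13 of 20 usable ones lay below their bin's median for TE, with a median log2 ratio of -0.31 (95% interval -0.78 to 0.09) over 11 loci. For half-life 6 of 14 lay below, with a median of 0.13 (-0.48 to 0.40) over 8 loci. Of isoforms without a let-7 site, 49.8% lay below for TE and 49.9% for half-life. Both intervals of the medians include 0.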

How the results depend on the processing

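No paired analysis was possible because the tables hold no value per library or mouse, and for the same reason no replicate could be left out. The fit of TE on a let-7 site stayed within 1 standard error of its value under 10 alternatives, and that of half-life under 9. The exception was a coverage minimum of 15, which gave a half-life coefficient of -0.11 (standard error 0.046) over 214 members, with an interval (-0.20 to -0.02) below 0. With sites at least 15 nt after the stop codon it was -0.08, with an interval of -0.16 to -0.00076, and with GC content as a further term -0.07 (-0.15 to 0.01). Medians by length bin stayed within their intervals under all 3 alternatives each. The median pair difference ran from -0.69 to -0.51 for TE and from -0.52 to -0.43 for half-life over 5 alternatives each, and the isoform with the site was lower in 17 of 18 TE pairs and 15 of 17 half-life pairs at a coverage minimum of 15. Without Cdc34, 10 of 10 TE and 10 of 12 half-life pairs were lower. Against site-free pairs of like added length, an alternative chosen after seeing the data, the TE median ran from -0.05 to 0.12 and the half-life median from -0.32 to -0.16. Depth limits the pairs: 5 of 11 TE pairs and 6 of 13 half-life pairs have an isoform with a coverage below 60.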

Other observations

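Isoforms that pair with bases 2 to 7 of let-7 and carry an A opposite base 1 (TACCTCA in the 3′ UTR), without the longer match, fall outside the members. For TE, 46 of 71 such isoforms (64.8%) lay below their bin's median, against 49.8% of all isoforms without a let-7 site. Their median log2 ratio was -0.26 (95% interval -0.48 to -0.09). With the most covered isoform of each locus this became 21 of 39 (53.8%, against 46.9% of isoforms without a let-7 site) and -0.09 (-0.30 to 0.23). The TE value thus depended on loci with several isoforms. For half-life the order was the other way. Over isoforms, 59 of 106 (55.7%, against 49.9% without a let-7 site) lay below, with a median of -0.05 (-0.16 to 0.09). With 1 isoform per locus, 45 of 71 (63.4%, against 50.5%) did, with a median of -0.14 (-0.23 to -0.0034). These sites were looked at after the members' values were known. Isoforms with a let-7 match in the 5′ UTR and none in the 3′ UTR had medians of -0.02 (-0.19 to 0.24) for TE over 37 isoforms and 0.04 (-0.10 to 0.21) for half-life over 52.

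Single values stood far from their bins at low coverage. Alkbh4, with 2 sites, had a half-life of 1.87, 0.186 times its bin's median, at a coverage of 41, while its TE of 0.000684 lay above its bin's median of 0.000587. The isoform at chr9:21667399-21671578 on the minus strand had a half-life of 51.6, 4.52 times its bin's median, at a coverage of 43; its match starts 1 nt after the stop codon. Both rest on few molecules and were chosen after their values were seen.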
